A study of Homo sapiens with 6 samples.

Results

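IRS2 (insulin receptor substrate 2, RefSeq gene 8660) held 11 of the 16230 Argonaute crosslink sites of the deposited table, and 1 of those 11 took most of the reads. The members are all rows of the table that carry the gene symbol IRS2. The gene was chosen by its crosslinked reads over the 4 libraries, which are among the highest in the table, so its overall level and the rank of its sites are given as a description with no test. The gene lies on the minus strand at chr13:109752695-109786583 (GRCh38.p14). The files annotate 10 of the 11 sites to its 3' UTR and 1 to its coding sequence.

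The study asked where microRNAs bind in HK2, an established cell line derived from human proximal tubule epithelium of the kidney, with and without TGF-beta1, a cytokine that drives fibrotic change in this epithelium. RNA bound to Argonaute was collected by PAR-CLIP: cells incorporate 4-thiouridine into RNA, ultraviolet light crosslinks it to the bound protein, and reverse transcription reads the crosslinked base as a change. The comparison has 2 anti-Argonaute libraries from untreated cells (control) and 2 from cells exposed for 24 h to 20 ng/mL of TGF-beta1. Both groups were wild-type cells, starved of serum for 24 h, labelled with 100 uM 4-thiouridine for 20 h and irradiated at 365 nm. IgG libraries of the series were not analysed here, so no level of non-specific pull-down stands beside the values. Whether replicate libraries stem from separate cultures is not in the labels, so the p-values reflect only how far these libraries vary, and that variation may be technical.

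IRS2 is an adaptor protein. After insulin or IGF binds its receptor, the receptor kinase phosphorylates IRS2 on tyrosines, which then recruit PI3-kinase and GRB2 and pass the signal to AKT and to the MAP kinase pathway. A microRNA guides Argonaute to an RNA mainly by pairing of its seed, nucleotides 2 to 8, and binding in a 3' UTR usually lowers the stability and translation of the messenger RNA. In PAR-CLIP of Argonaute, crosslinks tend to lie just upstream of the sequence that pairs with the seed.

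The sequences at the sites that carried most of the IRS2 reads are shown with the microRNAs the authors listed for them, because the seed match and its place beside the crosslink are what the annotation rests on. Each site is 30 nt of hg38, minus strand, 5′ to 3′, cut from the window that the authors deposited. There the crosslinked base is an asterisk, replaced here by a T. The crosslinked T is base 15 of each, and capitals mark the letters that match the seed. In the microRNAs, whose mature sequences are from RefSeq (GRCh38.p14), capitals mark the seed.
IRS2 miR-181 site, chr13:109754646-109754675: attgcaagacaaagtTGAATGTaaagtgat
miR-181a-5p: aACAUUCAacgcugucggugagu
miR-181b-5p: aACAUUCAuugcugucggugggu
miR-181d-5p: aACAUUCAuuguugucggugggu
IRS2 miR-7 site, chr13:109753983-109754012: aacttatcttgctctGTCTTCCactgtaca
miR-7-5p: uGGAAGACuagugauuuuguuguu
IRS2 miR-103 site, chr13:109753943-109753972: aggggtcaatgtgATGCTGCtggagacgag
miR-103a-3p: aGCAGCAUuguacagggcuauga
IRS2 miR-200b site, chr13:109755062-109755091: cttgttttatgttttCAGTATTctgaaaat
miR-200b-3p: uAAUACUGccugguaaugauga
miR-429: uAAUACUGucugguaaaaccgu

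At the miR-181, miR-7 and miR-200b sites the 7-nt match began 1 nt after the crosslinked T. At the miR-103 site it began 1 nt before it, so that the crosslinked T lies inside the match. The miR-181 and miR-7 matches are each followed by an A, the base opposite nucleotide 1 of the microRNA, and the miR-103 and miR-200b matches are not. The 3 miR-181 members share 1 seed, as do miR-200b-3p and miR-429. All microRNAs listed for IRS2 sites were found in the RefSeq table, and each seed computed from it for a listed family was the seed the authors printed.

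IRS2 gave 1698 crosslinked reads over the 4 libraries: 240 and 472 in control libraries 1 and 2, and 461 and 525 in TGF-beta1 libraries 1 and 2. As RPM, which scales reads to the depth of the library, that is 140.0, 245.0, 87.1 and 153.7. The control range encloses the second treated library, and the first treated library is the lowest. Library depth ran from 1714444 to 5293207 reads, with both treated libraries deeper than both controls, and crosslinked reads at sites from 36958 to 74969. Of the 16230 sites, 6145 had a crosslink in all 4 libraries. Among marker lists, 0 of 8 proximal tubule markers had a site, nor did any of the fibroblast (3), endothelial (3), leukocyte (2) or distal nephron (3) markers. Of 5 general epithelial markers, KRT18, a simple-epithelial keratin, had one, with 8 control and 20 TGF-beta1 reads, not scaled to depth. The values used here are reads at bound positions rather than RNA levels, so these lists check the HK2 label only weakly.

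The miR-181 site held 1424 of the 1698 IRS2 reads, 83.9%. It lies 1966 nt before the annotated 3' end of the gene, with the crosslink at chr13:109754661. Control libraries 1 and 2 had 199 and 392 crosslinked reads there, and the TGF-beta1 libraries 383 and 450. Those are 116.07, 203.5, 72.4 and 131.7 RPM. The order of the libraries at this site is that of the whole gene. By mean RPM it was rank 2 of all 16230 sites, at 130.92, just above a PEG10 site at 129.6. It was rank 2 in both control libraries and rank 3 in both treated libraries.

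The authors listed 567 sites for the miR-181 family, and the IRS2 site was the highest of them in each of the 4 libraries. The next, in the fatty acid desaturase gene SCD, had a mean of 25 RPM. The IRS2 site alone took 14.5% ± 2.27 (SD, n = 2) of all crosslinked reads at miR-181 sites in control and 12.3% ± 1.02 (SD, n = 2) in TGF-beta1 libraries. The median of the 140 3' UTR sites with a 7-nt miR-181 match was 1.36 RPM. The match TGAATGT is not rare: it was in 1.85% of all 31-nt windows of the table and 2.78% of 3' UTR windows on the transcribed strand.

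Once scaled between libraries by TMM, which sets the bulk of sites to a common level, the miR-181 site stood at 110.0 and 135.0 scaled RPM in control and 118.0 and 128.6 in TGF-beta1 libraries. Both treated values lie between the control values. The other 10 sites shared 274 reads. The miR-181 site was 16.5-fold above the next site by mean scaled RPM, and 11.1 to 21.8-fold within single libraries. Below it, the ranges over the 4 libraries overlapped for every pair of neighbours in the order, so no rank among the other 10 sites is separated from the next by more than the spread. Sites further apart in the order can be: the lowest library at the miR-7 site, at 6.20, was above the highest at the miR-200b site, at 5.16.

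**Figure D1:**
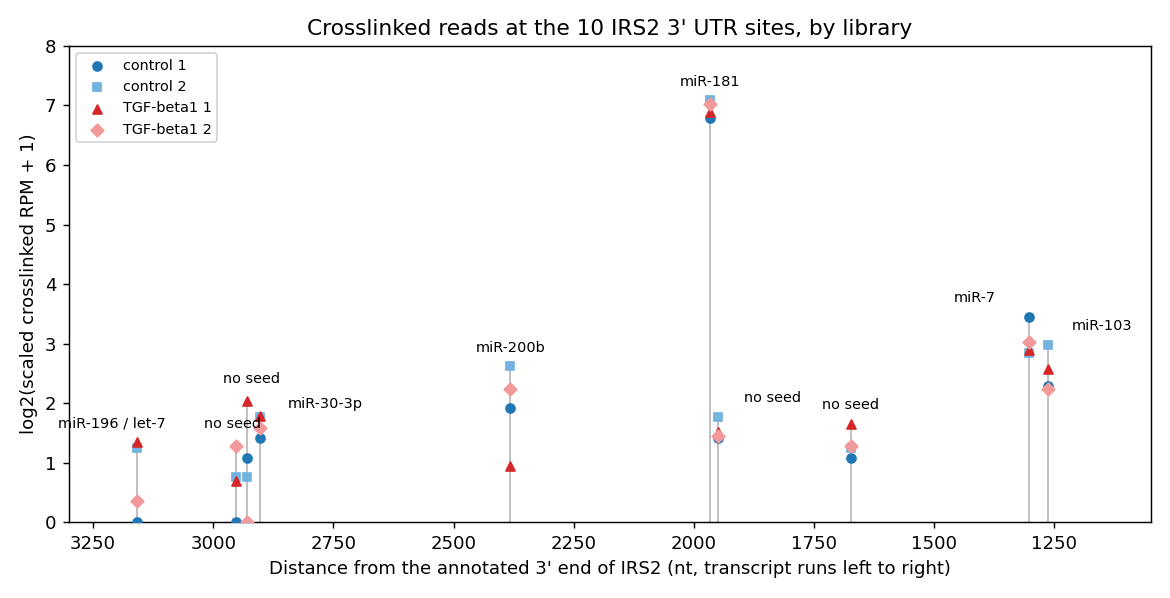
Each point is 1 library at 1 IRS2 3' UTR site. The x axis is the distance in nt from the annotated 3' end of the gene, running 5' to 3' from left to right, and the y axis is log2(TMM-scaled crosslinked RPM + 1). The miR-181 site stands apart from the other 9 sites in all 4 libraries, and blue control points and red TGF-beta1 points are interleaved there.

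The next sites in the order were the miR-7 and miR-103 sites, which lie 40 nt apart and closest to the 3' end of the gene, at 1303 and 1263 nt from it. miR-7 is an intron-encoded microRNA known for targeting growth factor signalling genes, IRS2 among them. The miR-7 site had 18 and 18 reads in control and 21 and 25 in TGF-beta1 libraries, or 10.5, 9.34, 3.97 and 7.32 RPM. Before scaling, values were lower in the treated libraries over the genes as a whole, with a median log2 difference of -0.45 over all genes tested. After TMM scaling the groups overlapped, at 8.07 ± 2.65 scaled RPM in control and 6.81 ± 0.477 in TGF-beta1 libraries (SD, n = 2). Among 206 sites listed for miR-7 it was rank 2 by mean RPM, behind a site in CKAP4 at 12.6 RPM, and rank 1, 2, 4 and 4 in single libraries. The match GTCTTCC was in 0.388% of all windows and 0.474% of 3' UTR windows.

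The miR-103 site had 7 and 20 reads in control and 16 and 13 in TGF-beta1 libraries. Its scaled level was 5.38 ± 2.13 in control and 4.32 ± 0.858 in TGF-beta1 libraries (SD, n = 2), with 1 treated library inside the control range and the other just below it. By mean RPM it was rank 60 of 751 sites listed for miR-103 (46 to 100 in single libraries), and rank 4 of the 71 of these that are 3' UTR sites with a 7-nt match. Its window holds matches to further seeds. TGCTGCT, which overlaps ATGCTGC by 6 letters, pairs with the seed of miR-15 and miR-16, and was in 3.27% of all windows and 4.69% of 3' UTR windows. AATGTGA pairs with the seed of miR-23a and miR-23b and starts 7 nt before the crosslink; it was in 1.17% of all windows and 1.80% of 3' UTR windows. The reads do not separate these microRNAs.

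The miR-200b site, 2382 nt from the 3' end, carries a seed of the microRNA family known for maintaining the epithelial state. It had 5 and 15 reads in control and 3 and 13 in TGF-beta1 libraries. The scaled level was 3.96 ± 1.70 in control and 2.32 ± 1.97 in TGF-beta1 libraries (SD, n = 2). The spread within each group was of the size of the difference, with replicate 1 low in both groups. By mean RPM it was rank 15 of 235 sites listed for this seed, but its rank in single libraries ran from 8 in control library 2 to 90 in TGF-beta1 library 1. The match CAGTATT was in 0.727% of all windows and 1.22% of 3' UTR windows.

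The remaining 7 sites had few reads. The most read of them was the miR-30-3p site, 2903 nt from the 3' end, with 3, 7, 8 and 7 reads in control libraries 1 and 2 and TGF-beta1 libraries 1 and 2. Its listed match has 6 nt, to nucleotides 3 to 8 of miR-30a-3p and miR-30e-3p, and starts 12 nt after the crosslink. Sites with no listed seed lay at 2953, 2929, 1949 and 1674 nt. In control libraries 1 and 2 and TGF-beta1 libraries 1 and 2 the first had 0, 2, 2 and 5 reads, and the site at 2929 nt had 2, 2, 10 and 0. The site at 1949 nt had 3, 7, 6 and 6 reads, and the site at 1674 nt had 2, 4, 7 and 5. At the site at 1674 nt both treated libraries were above both controls, at 2.16 and 1.43 against 1.11 and 1.38 scaled RPM, on too few reads for a test. At the other 3 sites with no listed seed the groups overlapped. Over the 1059 sites with enough reads to test, 48.3% had groups that did not overlap, in either direction. The coding site, 30911 nt from the 3' end, had 1 read in each control library and none in the treated libraries, and was listed with a bulged match to miR-128.

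The most 5′ of the 3' UTR sites, 3158 nt from the 3' end, had 0 and 4 reads in control and 5 and 1 in TGF-beta1 libraries. The authors listed it for miR-196 with a 6-nt match and named let-7 as another seed there. Its sequence is shown with both microRNAs because the let-7 match is the longer one. Capitals in the site mark the 6 letters that match nucleotides 2 to 7 of miR-196.
IRS2 miR-196 site, chr13:109755838-109755867: caaaacgaccacagtcCTACCTcagttcaa
miR-196a-5p: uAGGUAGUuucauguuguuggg
let-7a-5p: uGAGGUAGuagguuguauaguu
The window holds the whole 7-nt let-7 match, CTACCTC, starting 2 nt after the crosslink and followed by an A. That match was in 1.98% of all windows and 1.66% of 3' UTR windows. The authors' score for microRNA reads, scaled to the library total, was 97405 for the let-7 seed and 6130 for the miR-181 seed. This site had a mean of 0.828 RPM, against 130.92 RPM at the miR-181 site of the same UTR. Within IRS2 the order of the sites by reads was not the order of these scores: the score was 8316 for miR-200b, 5215 for miR-7 and 1372 for miR-103.

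Of the 11 sites, 7 carried a seed annotation: 4 with a 7-nt match, 2 with a 6-nt match and 1 bulged. A 7-nt match was listed at 18.8% of all sites and 27% of 3' UTR sites. Searching each window on the transcribed strand for 7-nt matches to the 42 listed seeds found one at 5 of the 11 IRS2 sites, the 4 listed ones and the let-7 match. Such a match was in 21.5% of all windows and 30.1% of 3' UTR windows. The IRS2 3' UTR sites spanned 1895 nt and 7 of the 11 were crosslinked in all 4 libraries. The windows of the IRS2 3' UTR sites ran from 45.2% A and T at the miR-103 site to 87.1% at the miR-30-3p site. Their median was 62.9%, against 61.3% over all 6332 3' UTR windows, and the miR-181 window had 71.0%.

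Predicted pairing beyond the seed was computed for each window with its listed microRNA. For the miR-181 site the duplex with miR-181a-5p had a predicted energy of -18.8 kcal/mol, with miR-181d-5p -14.5 and with miR-181b-5p -13.1. That of miR-181a-5p was rank 8 from the strongest among 112 3' UTR windows with the same 7-nt match beside the crosslink, whose median was -12.6. The miR-7 duplex stood at -15.8 (rank 5 of 27, median -13.7), and the miR-103a duplex at -19.0 (rank 21 of 71, median -16.9). The miR-200b duplex, at -6.8, was rank 45 of 47, among the weakest for its seed, where the median was -9.6. The duplex with miR-429, which has the same seed, stood at -11.9. These are predictions from sequence and were not measured.

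The share of covering reads that carry a crosslink is also given as a description, since its numerator is the crosslinked reads by which the gene was chosen. At the miR-181 site it was 65.7% (199 of 303 reads; Wilson 95% interval 60.2 to 70.8) and 74.1% (392 of 529; 70.2 to 77.7) in control. In TGF-beta1 libraries it was 76.1% (383 of 503; 72.2 to 79.7) and 67.1% (450 of 671; 63.4 to 70.5). The groups overlap, with 1 lower and 1 higher library in each. These intervals cover counting error only, and several reads may stem from 1 molecule. Over the 3552 3' UTR sites crosslinked in every library the medians were 44.3, 44.4, 33.3 and 35.7%, so the miR-181 site stood at percentiles 69.5, 77.5, 87.8 and 82.1. Among those with at least 100 covering reads in the library, 65 to 193 sites, the medians were lower, at 26.8, 27.8, 19.5 and 19.5%. There the site stood at percentiles 89.2, 91.8, 95.3 and 91.2.

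The site without a seed that lies 17 nt downstream, 1949 nt from the 3' end, had many covering reads and few crosslinks. It was covered by 199, 319, 269 and 377 reads, yet 3, 7, 6 and 6 of them carried a crosslink, or 1.51, 2.19, 2.23 and 1.59%. Its covering reads numbered 65.7, 60.3, 53.5 and 56.2% of those at the miR-181 site. Its window, printed here to show where it stands, begins inside the miR-181 match and so holds part of the same sequence.
IRS2 site 17 nt downstream, chr13:109754629-109754658: aatgtaaagtgatctccctgaacattttta
At the miR-7 site the share crosslinked was 75 and 50.0% in control and 48.8 and 64.1% in TGF-beta1 libraries, from 24 to 43 covering reads. At the miR-103 site it was 36.8 and 55.6% in control and 34.8 and 33.3% in TGF-beta1 libraries, from 19 to 46 covering reads. At the miR-200b site it was 5 of 5 and 15 of 17 reads in the control libraries and 3 of 11 and 13 of 23 in the TGF-beta1 libraries. At the miR-103 and miR-200b sites both treated shares were below both controls, as at 25.6% of the 3552 3' UTR sites crosslinked in every library. At the miR-200b site the Wilson 95% intervals were 56.6 to 100% and 65.7 to 96.7% in control. In TGF-beta1 libraries they were 9.75 to 56.6% and 36.8 to 74.4%. Between the groups, only the intervals of control library 2 and TGF-beta1 library 1 did not overlap. Those of control library 1 and TGF-beta1 library 1 barely met, at 56.6%. The coverage column is 0 wherever a library has no crosslinked read, so a library without a crosslink gives no share at a site, and the shares at thinly read sites leave out such libraries.

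**Figure D2:**
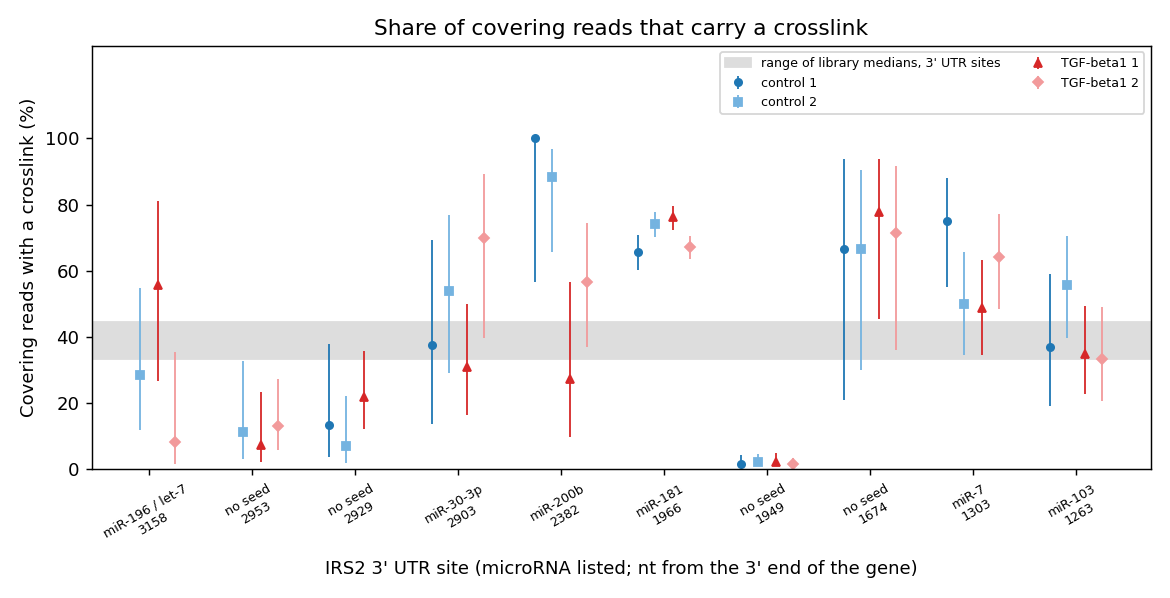
Points give the percentage of covering reads that carry a crosslink at each IRS2 3' UTR site and library, with Wilson 95% intervals. The grey band spans the 4 library medians of 3' UTR sites crosslinked in every library, 33.3 to 44.4%. The miR-181 site lies above the band with narrow intervals, and the site 17 nt downstream of it, at 1949 nt, lies at 1.51 to 2.23%. Sites without a point for a library had no crosslinked read there.

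The concentration of reads in 1 site was set against other genes with many sites and reads. Among the 45 genes with at least 500 crosslinked reads and 10 sites, limits that were chosen after the data were seen, the median gene had 29.1% of its reads in its top site. IRS2, at 83.9%, was rank 3, after the transcription factor gene RUNX1 at 93.9% and the tubulin gene TUBB at 87.5%. In each library the miR-181 site had 82.9, 83.1, 83.1 and 85.7% of the IRS2 reads.

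TGF-beta1 against control was tested on the sum of the IRS2 sites and on each site with enough reads. In the sum over sites, scaled by TMM over genes, IRS2 stood at 132.7 and 177.0 scaled RPM in control and 130.8 and 149.5 in TGF-beta1 libraries. The groups overlapped, while 43.6% of the 1266 genes tested had groups that did not. The difference was -0.13 ± 0.21 (SE) on the log2(value + 1) scale, with a 95% interval from -0.59 to 0.33 (limma adjusted p = 0.826). That interval runs from 0.664 to 1.25-fold, so a change of more than 1.25-fold upwards or below 0.664-fold lies outside it. Over all genes, 39 of 1266 (3.08%) passed the test. The IRS2 value was close to 0 or turned positive with 3' UTR sites only (0.00325), with no filter on low counts (0.031), without control library 2 (0.066) and without TGF-beta1 library 1 (0.015). From the crosslinked reads of these bulk libraries alone, fewer bound molecules per cell and less RNA per cell cannot be told apart.

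Of the 11 sites, 4 had enough reads to test, and 0 of the 4 passed in limma, at adjusted or at unadjusted p under 0.05. None passed in edgeR or DESeq2 either. Over all sites tested, 75 of 1059 (7.08%) passed, and 204 (19.3%) had an unadjusted p under 0.05. The groups overlapped at all 4 IRS2 sites, while 48.3% of the sites tested had groups that did not overlap. The miR-181 site differed by 0.02 ± 0.18 (SE, log2), with an interval from -0.35 to 0.38 (limma adjusted p = 0.978). The miR-7 site differed by -0.19 ± 0.40, from -1.02 to 0.64 (limma adjusted p = 0.851), and the miR-103 site by -0.23 ± 0.48, from -1.23 to 0.77 (limma adjusted p = 0.848). The miR-200b site had the lowest value, -0.68 ± 0.59, and the widest interval, from -1.89 to 0.54 (limma adjusted p = 0.604). The site values use a scaling over sites and the sum a scaling over genes, so the 2 kinds of value are not on 1 scale.

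**Figure D3:**
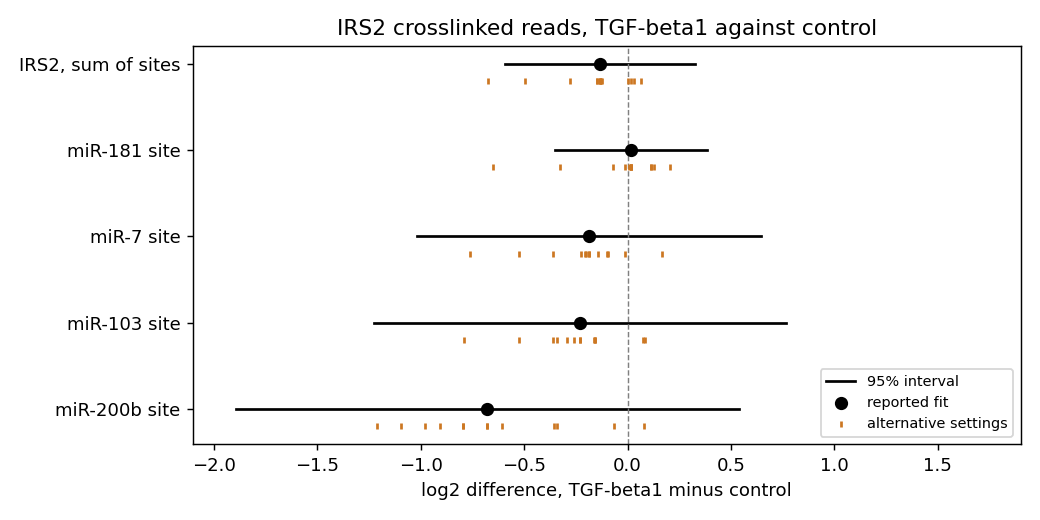
Black points are log2 differences, TGF-beta1 minus control, for the sum of IRS2 sites and the 4 sites tested, with 95% intervals as lines. Orange ticks give the same difference under each alternative setting. All 5 intervals cross 0, and that of the miR-181 site is the narrowest.

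Whether single IRS2 sites changed differently from the rest of the gene was tested with limma's diffSplice. The difference from the average of the other tested sites was 0.38 at the miR-181 site, 0.11 at the miR-7 site, 0.05 at the miR-103 site and -0.54 at the miR-200b site, each ± 0.50 (SE, log2). Adjusted p values in limma ran from 0.864 to 0.975, and 0 of the 4 had an unadjusted p under 0.05. In the table as a whole 0 of 512 sites passed (0%), with 27 (5.27%) at an unadjusted p under 0.05. The share of IRS2 reads in the miR-181 site was 83.0% ± 0.0949 in control and 84.4% ± 1.86 in TGF-beta1 libraries (SD, n = 2; exact permutation p = 0.333, two-sided, the smallest that 2 against 2 can give). Sites with a 7-nt match held 94.8% ± 0.804 and 93.6% ± 2.60 of the reads (SD, n = 2; exact permutation p = 1). The 3' UTR held 99.7% ± 0.145 and 100% of them (SD, n = 2; exact permutation p = 0.333).

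Among the 5 genes whose summed scaled RPM was most like that of IRS2 over the 4 libraries, by Euclidean distance in log2(value + 1), were TMBIM6 (0.458), CDKN1B (0.552), ZFP36L1 (0.667) and FOSL2 (0.833). TMBIM6 encodes an endoplasmic reticulum membrane protein, and its groups overlapped like those of IRS2. CDKN1B, which encodes a cyclin-dependent kinase inhibitor, was lower in both treated libraries than in both controls, as was FOSL2, a subunit of AP-1. ZFP36L1, an RNA-binding decay factor, was higher in both. Such patterns were common: 43.6% of the 1266 genes tested had groups that did not overlap. In 23.1% both treated libraries were below both controls. None of the 5 passed in limma, with the lowest adjusted p, 0.172, at FOSL2.

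The other genes of insulin and IGF signalling were read from a list of 60 genes that runs from ligands to targets. Of these, 24 had a crosslink site and 7, IRS2 included, had enough reads to test. None of the 7 passed in limma as higher or as lower, where 1.58% and 1.5% of all genes did. None had an unadjusted p under 0.05, which 13.8% of all genes had. None was called with edgeR or DESeq2 either. The median log2 difference of the 7 was 0.02, the same as over all 1266 genes, and 3 of the 7 were below 0. One of the 7, IGFBP3, had both treated libraries below both controls, as had 23.1% of all genes tested. The other 17 genes with a site, among them the sister adaptor IRS1 with 27 reads, held 2 to 36 reads over the 4 libraries.

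At the receptor level, IGF1R, the IGF1 receptor that phosphorylates IRS2, had 27.7 and 36 scaled RPM in control and 32.9 and 36.4 in TGF-beta1 libraries. Its difference was 0.13 ± 0.24 (SE, log2; limma adjusted p = 0.852). Of its reads, 73.1% lay in 1 of 9 sites, a 3' UTR site listed for the miR-99/100 family. IGFBP3, which binds IGFs outside the cell, had 26.5 and 25.5 in control and 19.3 and 24.8 in TGF-beta1 libraries, a difference of -0.24 ± 0.25 (SE, log2; limma adjusted p = 0.744). It had 94.8% of its reads in 1 of 3 sites, listed with a 6-nt match to miR-182. INSR, the insulin receptor, had no site in the table.

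Downstream of IRS2, GRB2, the adaptor that links receptors to RAS, had 4.42 and 9.37 scaled RPM in control and 6.81 and 7.69 in TGF-beta1 libraries, with both treated values between the controls. PHLPP2, a phosphatase that acts on AKT, had 10.5 and 15.7 in control and 9.93 and 15.1 in TGF-beta1 libraries. RHEB, the small GTPase that activates mTORC1, had 3.87 and 3.0 in control and 3.69 and 4.27 in TGF-beta1 libraries. In limma the adjusted p values of these 3 ran from 0.906 to 0.960. The share of reads in the leading site was 77.4% in GRB2, with no seed listed. It was 51.0% in PHLPP2, listed for the miR-25/92 family, and 53.5% in RHEB, listed for let-7. PIK3CB, a catalytic subunit of PI3-kinase, had 36 reads at 2 sites and was not tested. Of the 7 genes tested, only IRS2 had a leading site listed for miR-181.

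**Figure D4:**
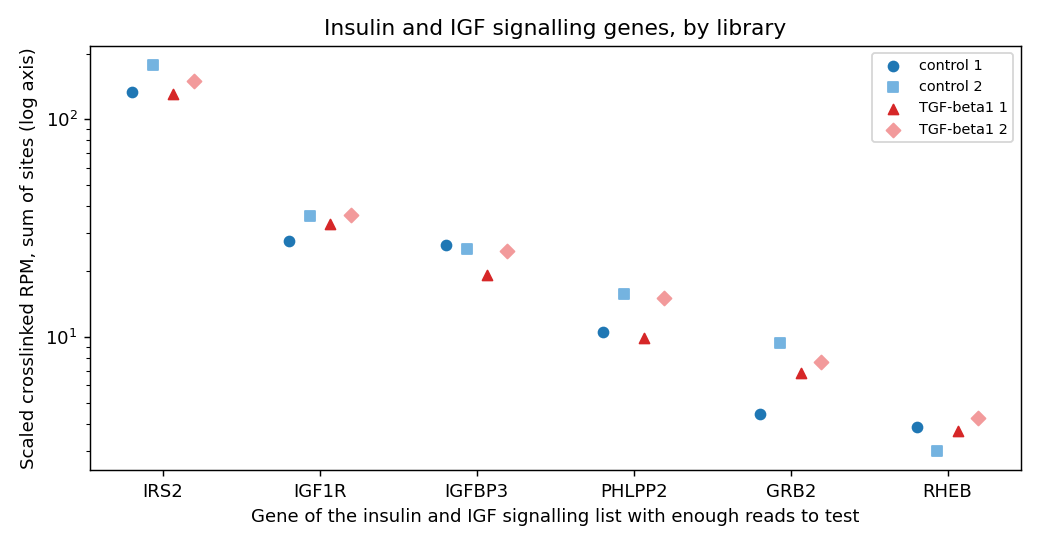
Each point is 1 library, and the y axis, on a log scale, is the TMM-scaled crosslinked RPM summed over the sites of a gene. Of the tested genes of the list, 6 are drawn. Control and TGF-beta1 points overlap in 5 of these 6, and in IGFBP3 both TGF-beta1 points lie below both controls. Levels of different genes are not corrected for length and are not to be compared.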

How the data were processed

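The members and gene lists were chosen with earlier results of these data known. PAR-CLIP reads of 4 Argonaute libraries were processed by the authors with STAR 2.7.1a, bcl2fastq 2.20.0.422 and bedtools on hg38, per the submitters' processing notes, with GENCODE release 27, per the file headers. For the crosslink caller, program and filters are not stated in these sources. The deposited table gives crosslinked and covering reads per site in RPM, scaled by the authors to the total reads of a library, per the file headers. The authors' microRNA score is microRNA reads scaled to the library total, per the file headers, and the score of the deposited position list is 1 at all 16230 sites. The 4 columns of per-sample values that name other samples, and the IgG libraries, were not used.

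All RPM values were whole multiples of 1 read (tolerance 0.1 reads), which gave back the read numbers and the depth. With a variance trend, limma 3.58.1 (R 4.3.3) was run on log2(TMM-scaled RPM + 1) over all genes (sums over sites) or sites kept by filterByExpr of edgeR 4.0.16 (minimum count 10), two-sided, with Benjamini-Hochberg adjustment at 0.05. The log scale understates changes of low values. Site use came from diffSplice and shares from exact permutation tests. edgeR's quasi-likelihood test and DESeq2 1.42.0 on recovered reads were alternatives. Duplex energies came from RNAduplex of ViennaRNA 2.7.2. Fits were tested on simulated data. IRS2 sites were named if tested or among the 10 with most reads, list genes if they passed or were among the 8 highest, and similar genes as the 5 nearest. Alternatives were TMM or none, pseudocounts of 0.25 and 4, no filter, covering reads, no trend, a replicate block, each library left out and 3' UTR sites only.

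Libraries of equal replicate number deviated from their group means with a correlation of 0.117 (sites) and 0.131 (genes). These are only 2 pairs, so they were not treated as pairs. Some genes that these rules select are not reported here.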

Additional observations from a re-analysis of the deposited data

How the results depend on the processing

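With 2 libraries a group, differences smaller than the intervals given were not detectable, and the sites outside the 4 tested are too thinly read for any test. No IRS2 value passed its test under any alternative run: the lowest limma, edgeR or DESeq2 adjusted p was 0.439 for the sum of sites and 0.439 for a single site. Under a block for the replicate number, the IRS2 sum kept -0.13 (limma adjusted p = 0.613), and the block changed no call for IRS2 or the list. It moved the count of genes called from 39 to 57. Leaving out control library 1 or control library 2 left 0 genes called in limma, with 261 and 245 at an unadjusted p under 0.05. Of the 39 genes, limma called 18 without TGF-beta1 library 1, and it called 24 genes without TGF-beta1 library 2, 25 with covering reads, 4 with no filter, 3 with no trend and 70 with 3' UTR sites only. Site calls, 39 higher and 36 lower, became 3 and 0 without TGF-beta1 library 1 and 12 and 3 without TGF-beta1 library 2. They were 82 and 28 without control library 1, 34 and 14 without control library 2, 65 and 52 under the block, 4 and 24 without TMM, 20 and 5 with no trend and 22 and 20 with DESeq2. In limma no site passed with no filter (2319 at an unadjusted p under 0.05) or with covering reads (1097). Without TMM scaling the median of all genes moved from 0.02 to -0.45 and IRS2 from -0.13 to -0.67, so directions hold only relative to that shift.

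Signs of IRS2 values that had not passed turned under the alternatives given next, and the cause was not tested. For the sum of sites, the log2 difference was 0.031 with no filter and 0.00325 with 3' UTR sites only, and ran from -0.28 to 0.066 with 1 library left out. The miR-181 site gave -0.65 without TMM, -0.33 with covering reads and -0.011 with DESeq2, and -0.071 to 0.21 with 1 library left out. Left-out ranges were -0.53 to 0.17 at the miR-7 site, -0.52 to 0.086 at the miR-103 site and -1.21 to 0.081 at the miR-200b site. Site use at the miR-7 site was -0.11 with no filter, -0.19 with covering reads and -0.48 to 0.54 with 1 library left out. At the miR-103 site it was -0.18 with no filter and -0.39 to 0.48. At the miR-181 site it was -0.16 with covering reads, and at the miR-200b site 0.14 with covering reads and -1.25 to 0.11. Site use without a variance trend was not run. With covering reads the differences in share, in percentage points, were 1.98 for sites with a seed annotation, 1.46 for 7-nt matches, 0.51 for the miR-103 site and 0.23 for the miR-200b site. With 1 library left out they ran from -3.09 to 0.58 for 7-nt matches, from -1.26 to 0.057 for the miR-103 site and from -2.84 to 0.85 for the miR-7 site. Of the covering reads summed over IRS2 sites, 27.2 to 34.5% per library were at the site 17 nt downstream of the miR-181 site. That site has no listed seed, and 1 read can cover both sites. The count of IRS2 windows with a seed match was 5 with 10 nt either side and 6 with 6-nt matches.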

Other observations

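The label of the most 5′ IRS2 3' UTR site, listed for miR-196 although the window holds the whole let-7 match CTACCTC, has counterparts in the table. Of 322 windows that hold CTACCTC, 293 were listed for let-7. Of the 83 sites listed for miR-196, 23 hold CTACCTC, and so do 11 of the 49 listed for miR-196 with a 6-nt match. Over all families, 525 of 6974 sites listed with a 6-nt match hold a 7-nt match to some listed seed. Counts of sites per family taken from the listing alone therefore differ from counts of the matches in the windows.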
